A study of Mus musculus with 6 samples.

Results

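The genes described here are 10 actins and contractile targets of serum response factor (SRF), chosen by name: Acta2, Actb, Actg1, Tagln, Tagln2, Tpm1, Tpm4, Cnn2, Myl9 and Fhl2. Each matched 1 row of the 37757 rows in the authors' deposited table, all 10 were tested there, and none stood in a row naming several genes. The libraries were made from kidney epithelial cells of C57/Bl6J mice aged 8 weeks, and both groups carried the genotype Bim-/- Bmf-/-, which lacks a pair of pro-apoptotic BH3-only proteins. The first group was left attached and the other was kept in suspension culture for 4 h, with 3 libraries each. Whether a group's libraries are separate cultures or separate animals is not said in the labels, and the deposited p-values may therefore reflect technical spread alone. The authors' deposited table gives 1 FPKM (fragments per kilobase of transcript, scaled to library size) for each gene and condition, which leaves the spread among replicates and the read depth unknown.

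Actin filaments and non-muscle myosin carry the tension of cells that sit on a substrate. SRF binds a short DNA element named the CArG box, and its cofactors of the MRTF family (symbols Mkl1 and Mkl2 in the table) are held back by actin monomers and released when filaments assemble. Actin genes and genes for actin-binding contractile proteins are among the known targets of SRF, so the amount of polymerised actin is known to feed back on the supply of new actin. In kidney, Acta2 is best known as the mark of smooth muscle and of myofibroblasts in scarring tissue, while Actb and Actg1 are made by nearly every cell.

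Because the 10 genes are grouped by SRF control, the CArG boxes of their promoters are shown first. Windows of 300 bases around the start site (RefSeq, GRCm38.p6) were found for 8 of the 10 genes, with 2 start sites for Fhl2, and none for Actb and Tagln. An exact CArG box stood in the window of 4 of these 8 genes (50%), against 1.81% of the 27025 genes with a window. Over all 32851 promoter windows the share was 1.63%. The genes were picked as SRF targets, so the higher share is no independent result. The 4 genes with an exact box are given 5′ to 3′ on the strand of the gene, with matches to the CArG box in capitals. The box of Actg1 begins 90 bases before the start site, that of Cnn2 at 56, that of the inner Fhl2 start site at 31 and that of Myl9 at 161 bases. The second capital run of Myl9, 99 bases before the start, departs from the motif at 1 position.
Actg1, chr11:120348543-120348662, minus strand: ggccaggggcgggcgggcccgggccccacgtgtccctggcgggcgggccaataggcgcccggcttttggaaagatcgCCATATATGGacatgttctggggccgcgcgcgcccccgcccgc
Cnn2, chr10:79988464-79988583, plus strand: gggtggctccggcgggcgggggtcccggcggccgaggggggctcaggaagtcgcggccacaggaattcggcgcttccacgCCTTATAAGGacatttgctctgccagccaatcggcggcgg
Fhl2, chr1:43163962-43164081, minus strand: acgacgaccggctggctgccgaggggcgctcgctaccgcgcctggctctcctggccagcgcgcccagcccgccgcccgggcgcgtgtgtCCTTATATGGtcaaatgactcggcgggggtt
Myl9, chr2:156775264-156775383, plus strand: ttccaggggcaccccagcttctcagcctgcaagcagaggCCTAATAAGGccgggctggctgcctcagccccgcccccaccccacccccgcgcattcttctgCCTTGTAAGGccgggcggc

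The outer start site of Fhl2 also has an exact box, and Acta2 and Tpm1 have boxes with 1 mismatch. The runs shown are short because GENCODE places these boxes inside an untranslated first exon. Allowing 1 mismatch raised the count to 6 of the 8 genes (75%), but 21.1% of all windows then matched. The runs of Acta2 begin their match 84 and 34 bases before the start site, that of the outer Fhl2 site 96 and that of Tpm1 80 bases before it. Tpm1 has another match with 1 mismatch, 221 bases before the start site and outside the GENCODE gene, which is not printed.
Fhl2 outer start, chr1:43196838-43196867, minus strand: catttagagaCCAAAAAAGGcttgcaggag
Acta2, chr19:34255438-34255467, minus strand: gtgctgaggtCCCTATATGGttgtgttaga
Acta2, chr19:34255388-34255417, minus strand: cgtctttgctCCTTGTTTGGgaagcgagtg
Tpm1, chr9:67049274-67049303, minus strand: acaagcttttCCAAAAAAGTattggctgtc

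Tagln2 and Tpm4 had no match within 1 mismatch in their windows, which says only that these letters are not there. The MCAT motif CATTCC, read on both strands and known as an element of TEAD factors, stood in 3 of the 8 genes (Acta2, Tagln2 and Tpm1) and in 14.7% of all promoter windows. A match is a description of the letters and not a measured binding site.

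The libraries were checked against marker genes first. All 10 kidney epithelial markers were tested, and in the authors' deposited table they summed to 3797 FPKM attached and 3643 FPKM suspended, with 3 called higher and 5 lower. Over all tested rows, 24.7% were called higher and 26.3% lower. For those with a mean of at least 50 FPKM the shares were 19.2% and 40.0%. Cdh1, E-cadherin, rose from 95.4 to 201 FPKM, and the kidney transcription factors Pax2 (150 to 30.9 FPKM) and Pax8 (104 to 37.1 FPKM) fell (all q = 0.000185) by the authors' deposited table. Of 17 smooth muscle and fibroblast markers, 15 stayed below 1 FPKM in both conditions per the authors' deposited table, and Col3a1 and Lum were listed at 0. Only 3 of the 17 were tested: Pdgfra rose from 0.155 to 1.81 FPKM (q = 0.000185) and Synpo2 from 0.0761 to 0.432 FPKM (q = 0.00685), while Smtn fell, by the authors' deposited table. Without Smtn, the other 16 summed to 0.401 FPKM attached and 2.97 FPKM in suspension as listed in the authors' deposited table. Of 4 tested genes of the endothelial and leukocyte list, 3 were called higher: Ptprc went from 1.42 to 12.4 FPKM and Cd68 from 23.4 to 34.9 FPKM (both q = 0.000185), and Csf1r from 0.729 to 3.25 FPKM (q = 0.0271) by the authors' deposited table. Cd14, the most abundant of the list, was not called, at 45.1 FPKM attached against 39.8 suspended (q = 0.208), and Itgam was untested at 0.123 and 0.113 FPKM, as given by the authors' deposited table. The list of 10 summed to 71.1 FPKM attached and 90.8 FPKM in suspension per the authors' deposited table, 6 of the 10 stayed below 1 FPKM in both conditions, and Emcn was listed at 0. The part of these other cell types in the results was not tested. Of the genes named in the genotype, Bcl2l11 (encoding Bim) stood at 9.53 and 51.4 FPKM and Bmf at 2.95 and 4.30 FPKM as listed in the authors' deposited table. A whole-gene value does not check a deleted part of a gene.

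The abundant cytoskeletal genes were mostly lower in suspension. At the authors' q below 0.05, 6 of the 10 genes were called lower (Fhl2, Acta2, Actb, Cnn2, Tpm1 and Tpm4), 1 was called higher (Myl9) and 3 were not called (Actg1, Tagln and Tagln2) by the authors' deposited table. Calls were common throughout: 51.0% of the 14748 tested rows were called, 26.3% lower and 24.7% higher. The median log2 fold change (suspended over attached) of the 10 genes was -0.35, beside -0.04 for the 14616 tested rows above 0 in both conditions. Lower calls were more frequent among abundant rows, at 40.0% of the 1950 tested rows with a mean of at least 50 FPKM, and 5 of the 7 genes here that are this abundant were called lower. These 7 had a median log2 fold change of -0.45, and all such rows -0.19. Requiring a 2-fold change as well left 2 lower calls (Fhl2 and Acta2), with a background of 7.12%, and 1 higher (Myl9), with a background of 12.4%. Scaling matters for small changes. Subtracting the median of rows with at least 1 FPKM in both conditions (-0.11), or equalising the upper quartiles (a log2 ratio of -0.19), moves every log2 fold change upward by that amount, and the test was not repeated on rescaled values. In bulk RNA, fewer cells expressing a gene and less of its RNA per cell cannot be told apart.

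**Figure D1:**
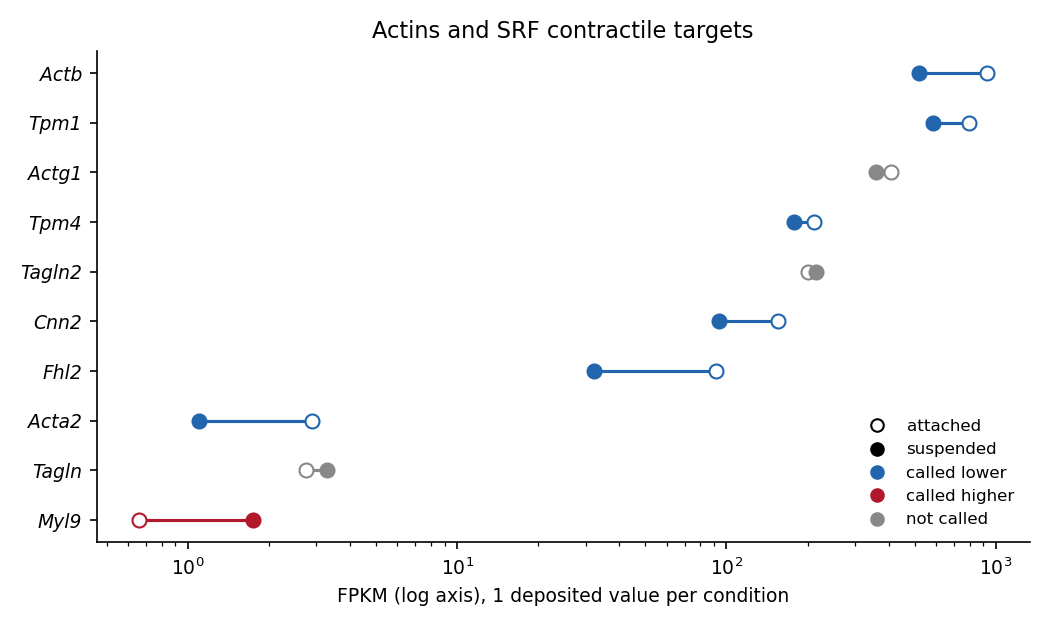
FPKM of the 10 genes in attached (open circles) and suspended cells (filled circles), drawn on a log axis from the authors' deposited table, where each gene has a single value in either condition and colour gives the call. The 7 abundant genes lie above 90 FPKM in attached cells, while Acta2, Tagln and Myl9 stay below 5 FPKM in both conditions.

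The levels fell into separate ranges, as the plot of FPKM by gene shows. FPKM are scaled to transcript length, so they can be set side by side between genes. In attached cells the order was Actb, Tpm1, Actg1, Tpm4, Tagln2, Cnn2, Fhl2, Acta2, Tagln and Myl9 per the authors' deposited table. In suspension Tpm1 stood above Actb and Tagln2 above Tpm4, and Tagln and Myl9 stood above Acta2. Whether such neighbours differ beyond their spread cannot be said from 1 value per condition.

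Precision was therefore read back from the deposited p. Dividing the log2 fold change by the normal quantile of the two-sided p gives the standard error (SE) that this p implies, and a 95% interval from it. The smallest deposited p is 5e-05, which is held by 4278 tested rows, among them Fhl2, Acta2, Actb, Cnn2 and Tpm1. For these 5 genes only an upper limit of the SE follows, between 0.11 for Tpm1 and 0.37 for Fhl2 on the log2 scale, and each has q = 0.000185 from the authors' Cuffdiff comparison. The deposited test score is on another scale, since the normal quantile of p was a median of 1.75 times the score over tested rows. With the score multiplied by that ratio, the SE would be 0.10 for Tpm4, 0.10 for Tagln2 and 0.58 for Myl9, and with the score taken as it stands each would be larger by the same ratio. The intervals given here therefore rest on the deposited p being correct.

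**Figure D2:**
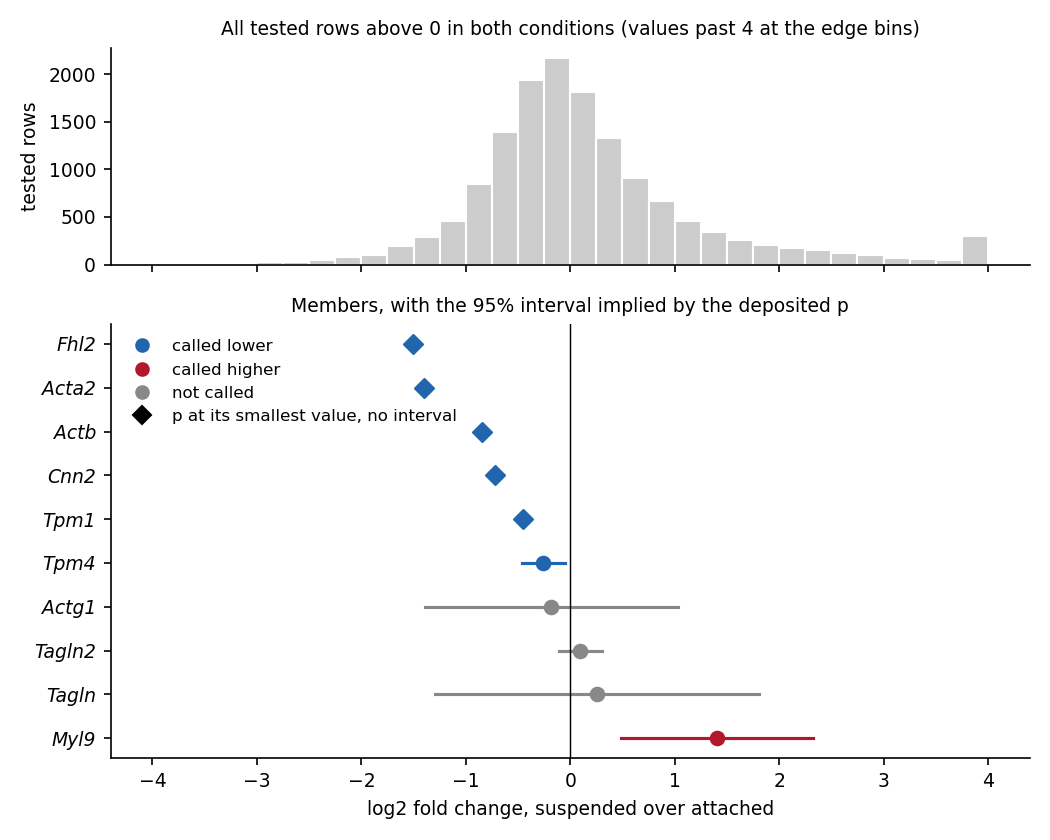
The upper panel counts the tested rows above 0 in both conditions by log2 fold change (suspended over attached). The lower panel places the 10 genes on the same axis, with the 95% interval implied by the deposited p where p is above its smallest value; on the deposited scale the interval of Tagln2 is narrow and includes 0, and those of Actg1 and Tagln are wide.

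Among the actins, the monomers of the filament itself, Actb and Actg1 differed in level and in precision. Actb, cytoplasmic beta-actin (chromosome 5, positions 142903115 to 142906754, minus strand, mm10), stood at 930 FPKM attached and 517 FPKM in suspension as listed in the authors' deposited table. It fell by 0.85 on the log2 scale (q = 0.000185), and its rank among the 14748 tested rows went from 42 to 95. Actg1, cytoplasmic gamma-actin (chromosome 11, positions 120345690 to 120348542, minus strand), stood at 408 FPKM attached and 360 FPKM in suspension in the authors' deposited table and was not called (q = 0.835). The log2 fold change of Actg1 was -0.18, and it turned to 0.0098 when the pooled values of the conditions were rescaled to equal upper quartiles. The deposited value had an implied SE of 0.62 and an interval from -1.40 to 1.03. That interval holds both 0 and the value of Actb, so the deposited test neither shows a fall of Actg1 nor separates it from that of Actb.

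The SE of Actg1 was large for its level. Among 544 tested rows with a mean of at least 100 FPKM and p above its smallest value, the median implied SE was 0.11, and 94.3% of those rows had a smaller one than Actg1. Read from the scaled test score instead, the SE of Actg1 would be 1.10. In the GENCODE M21 transcripts, 56.7% of the 50-base windows of the Actg1 transcript occur letter for letter in transcripts of 22 other genes, among them processed pseudogenes. The corresponding share was 14.2% for Actb, and at 100 bases it was 51.1% for Actg1 and 1.10% for Actb. The pseudogene Gm12715 holds 51.1% of the 50-base windows of Actg1 and was listed at 9.94 FPKM attached and 8.65 FPKM in suspension by the authors' deposited table. The pseudogene Gm8399 holds 35.6% of them and was listed at 32.3 and 27.0 FPKM per the authors' deposited table. How the authors assigned reads that fit several genes is not given in the sources used here, so the level of Actg1 is uncertain, and the part of shared sequence in its SE was not tested.

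**Figure D3:**
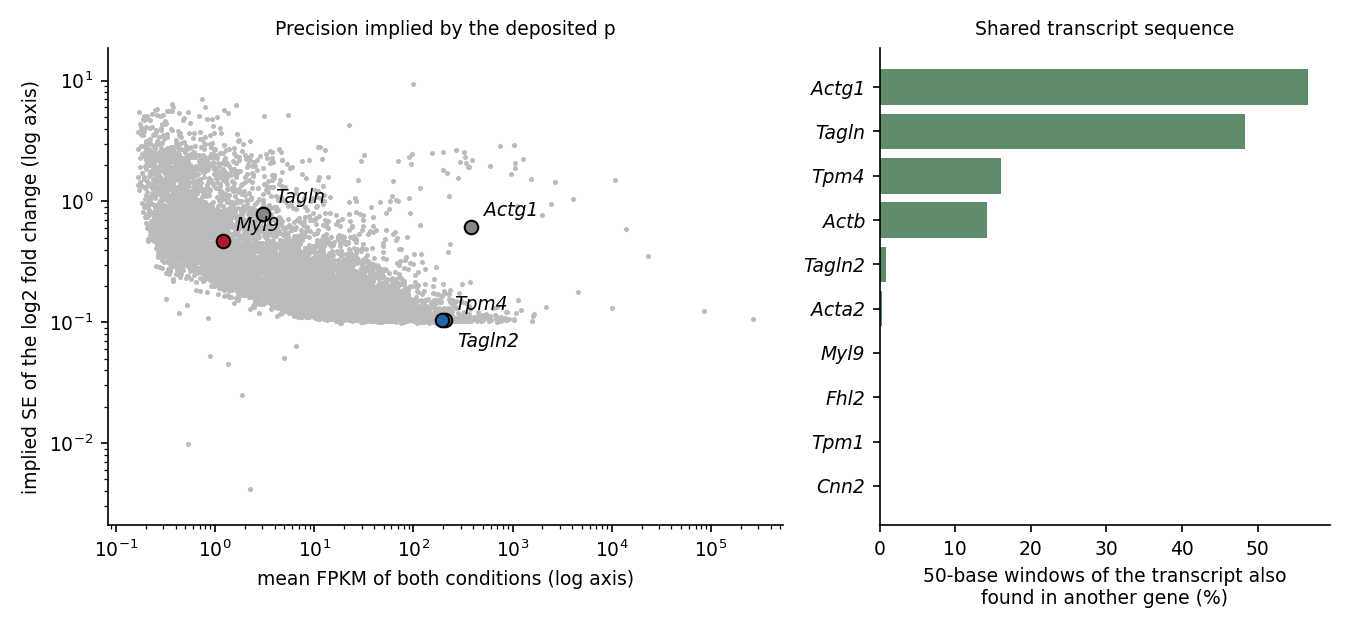
Left, the SE of the log2 fold change implied by the deposited p against mean FPKM (both on log axes), with 1 grey point per tested row whose p is above its smallest value and the 5 genes described here that have such a p marked. Right, the percentage of 50-base windows of each gene's transcript that also occur in another gene; Actg1 (56.7%) and Tagln (48.3%) have the highest shares.

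The sum of Actb and Actg1 went from 1339 to 877 FPKM as listed in the authors' deposited table, a ratio of 0.655. Actb made up 69.5% of that sum in attached and 59.0% in suspended cells, and its ratio to Actg1 went from 2.28 to 1.44. These are ratios of single pooled values and carry the uncertainty of Actg1. Acta2, smooth muscle alpha-actin (chromosome 19, positions 34241090 to 34255336, minus strand), was far lower, at 2.90 FPKM attached and 1.10 FPKM in suspension by the authors' deposited table. It fell by 1.40 on the log2 scale (q = 0.000185), or by 0.90 with a pseudocount of 1 FPKM, so its size depends on how low values are treated. Acta2 held 0.216% of the summed FPKM of the 3 actins in attached cells and 0.125% in suspension. Of 9 tested relatives of the 10 genes (tropomyosins, a calponin, light chains and LIM-only proteins), 5 were called lower by Cuffdiff and the other 4 had q of at least 0.258, and the median log2 ratio of these relatives was -0.31 per the authors' deposited table. Among all tested rows, 26.3% were called lower, and 40.0% of those with a mean of at least 50 FPKM. Tpm3, Cnn3, Myl6, Myl12a and Myl12b are that abundant. The other muscle actins with a row were at or near 0. Actc1 was listed at 0 in both conditions and Actg2 at 0.0230 and 0.0404 FPKM, both untested, in the authors' deposited table. Acta1 had no row there, so its level is unknown.

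**Figure D4:**
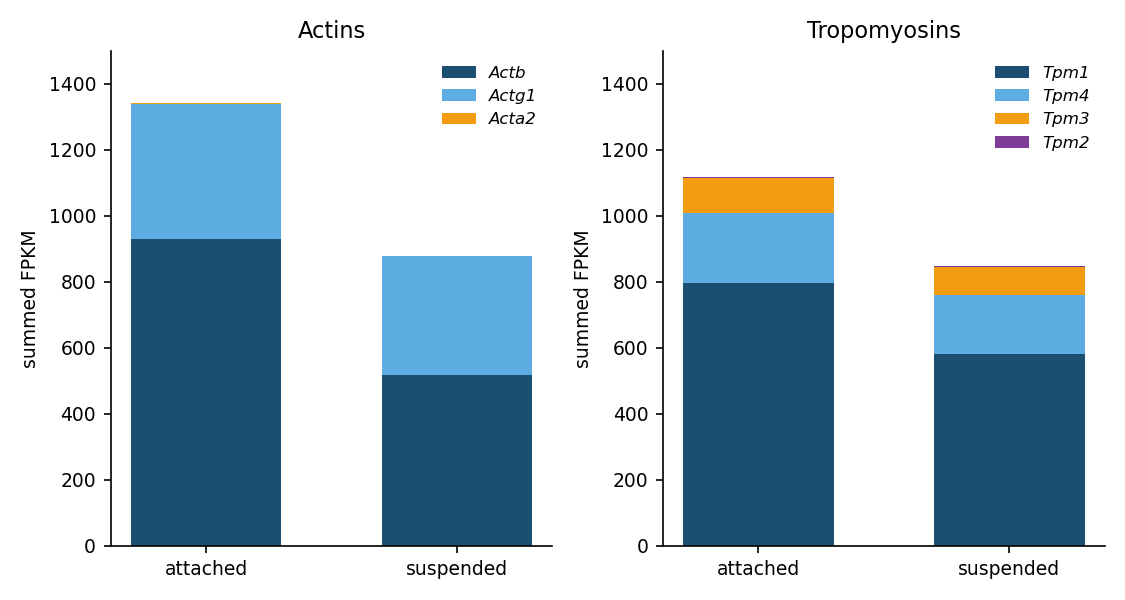
Stacked FPKM of the 3 actins and of the 4 tropomyosins in attached and suspended cells, with 1 value per gene and condition from the authors' deposited table and no error. Actb and Actg1 together go from 1339 to 877 FPKM and the tropomyosins from 1116 to 848 FPKM; Acta2 and Tpm2 are too low to be seen at this scale.

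Tropomyosins are rod proteins that lie along the filament and set which motors and cutting proteins reach it. Tpm1 (chromosome 9, positions 67022590 to 67049406, minus strand) stood at 797 FPKM attached and 582 FPKM in suspension in the authors' deposited table and fell by 0.45 on the log2 scale (q = 0.000185), or by 0.26 after upper quartile rescaling. Tpm4 (chromosome 8, positions 72134975 to 72160855, plus strand) stood at 212 and 177 FPKM in the authors' deposited table and fell by 0.26 on the log2 scale, with an interval from -0.46 to -0.05 (q = 0.0297). The call of Tpm4 ended at q below 0.01, and its value lay 0.15 below the median of rows with at least 1 FPKM in both conditions. After upper quartile rescaling the log2 fold change of Tpm4 was -0.06, which is closer to 0 than its implied SE of 0.10. Tpm3 fell from 104 to 83.7 FPKM (q = 0.0140), while Tpm2 had 3.54 FPKM attached against 3.98 suspended (q = 0.562) by the authors' deposited table.

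The makeup of the tropomyosins moved little. Tpm1 held 71.4% of their summed FPKM attached and 68.7% suspended, and Tpm4 19.0% and 20.9%. Their sum went from 1116 to 848 FPKM per the authors' deposited table, a ratio of 0.759. Of the Tpm4 transcript, 16.1% of 50-base windows occur in another gene, mainly the pseudogene Gm7809, and none of the windows of Tpm1 do. The row of Tpm4 also overlaps the opposite-strand RNAs Gm26586 and Gm16091, whose reads could not be told apart if strand was not counted. Tpm1 makes many isoforms by alternative splicing, which a single value per gene cannot tell apart.

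Calponin and transgelin are related proteins that bind along actin filaments. Cnn2, the calponin of non-muscle cells (chromosome 10, positions 79988584 to 79996062, plus strand), stood at 155 FPKM attached and 94.1 FPKM in suspension in the authors' deposited table and fell by 0.72 on the log2 scale (q = 0.000185). Its relative Cnn3 fell from 165 to 103 FPKM (q = 0.000185), and the smooth muscle calponin Cnn1 had 0.0122 and 0.0340 FPKM, untested, in the authors' deposited table. Tagln2, a transgelin found outside muscle (chromosome 1, positions 172500047 to 172507380, plus strand), stood at 201 FPKM attached and 215 FPKM in suspension in the authors' deposited table (q = 0.462). Its log2 fold change of 0.10 had an interval from -0.11 to 0.30, that is from 0.929-fold to 1.23-fold. It was 0.21 with the median subtracted and 0.29 after upper quartile rescaling. An interval moved by the same amount would leave out 0, though barely so with the median subtracted. With the larger SE from the score taken as it stands, both moved intervals would include 0, and the test was not repeated. By the deposited p, Tagln2 was measured about as precisely as Tpm4 at the same level of abundance, and its interval leaves out the falls of Cnn2 and Actb.

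Tagln, the smooth muscle transgelin also known as SM22, stood at 2.75 FPKM attached and 3.29 FPKM in suspension in the authors' deposited table (q = 0.816). Its log2 fold change of 0.26 had an interval from -1.29 to 1.81, which excludes little. The row of Tagln spans chromosome 9, positions 45838580 to 45936058, in the authors' deposited table and includes the neighbours Bace1, Rnf214 and Pcsk7, which have rows of their own. The gene itself covers positions 45929619 to 45936058 (minus strand) in GENCODE M21 and overlaps Pcsk7 by 108 bases and the antisense RNA Gm48529 by 3627 bases, both on the opposite strand. Of its 50-base transcript windows, 48.3% occur in these neighbours. Pcsk7 went from 12.1 to 7.61 FPKM (q = 0.0245) by the authors' deposited table. Whether strand was counted is not given in the sources used here, so the value of Tagln is uncertain.

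Myl9, a regulatory light chain of smooth muscle and non-muscle myosin, was the 1 gene called higher. It lies on chromosome 2, positions 156775420 to 156781658 (plus strand), and stood at 0.659 FPKM attached and 1.75 FPKM in suspension per the authors' deposited table. Its log2 fold change of 1.41 had an interval from 0.49 to 2.32 (q = 0.00721), and with a pseudocount of 1 FPKM it was 0.73. Both values are low, and Myl9 ranked 12574 of 14748 tested rows in attached cells. The abundant light chains were other genes: Myl6, an essential light chain, fell from 294 to 240 FPKM (q = 0.0138), Myl6b, its relative, fell from 29.0 to 15.0 FPKM (q = 0.000185), and the regulatory chains Myl12a (408 and 332 FPKM, q = 0.258) and Myl12b (192 and 149 FPKM, q = 0.30) were not called as listed in the authors' deposited table. Myl12a shares 29.6% of its 50-base windows with other genes, mainly Myl12b, so that pair is uncertain too.

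Fhl2, a LIM-only protein that binds integrins and acts as an SRF cofactor in the nucleus, had the largest change of the 10 genes as deposited. With the median subtracted Myl9 had the larger log2 fold change (1.51 against -1.40 for Fhl2), and so it did after upper quartile rescaling (1.60 against -1.31). Fhl2 stood at 91.6 FPKM attached and 32.2 FPKM in suspension in the authors' deposited table and fell by 1.51 on the log2 scale (q = 0.000185), a lower value than all but 3.46% of tested rows above 0 in both conditions. Its row (chromosome 1, positions 43123074 to 43163961, minus strand) ends at the inner start site, the one whose promoter is printed above in full, and leaves out the outer one. The transcript of Fhl2 has no 50-base window in common with another gene. Its relative Fhl3 fell from 24.0 to 7.77 FPKM (q = 0.000185), and Fhl1 had 1.76 FPKM attached against 1.64 suspended (q = 0.811) by the authors' deposited table.

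The 4 genes with an exact CArG box in their window did not share a direction. Cnn2 and Fhl2 were called lower, Myl9 was called higher at a low level, and Actg1 was not called. Acta2 and Tpm1, which match only when a mismatch is allowed, were called lower. Of the genes with a window and no such match, Tpm4 was called lower and Tagln2 was not called. Actb and Tagln had no window, and whether SRF acts on any of these genes was not tested. Over all tested genes with a promoter in the RefSeq table, 161 had an exact box; 54 of them were called higher (33.5%) and 37 lower (23.0%), with a median log2 fold change of 0.12. The 9711 tested genes with a promoter had 26.6% higher and 29.0% lower calls and a median of -0.04.

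The regulators of SRF did not fall as a group. Of 20 tested genes for SRF, its cofactors and the signalling that acts on them, 7 were called higher and 3 lower per the authors' deposited table, and the median log2 ratio was 0.07. Over all tested rows, 24.7% were called higher and 26.3% lower, and the lists that follow share this background. No list was tested against it. Srf itself had 16.4 FPKM attached against 13.9 suspended (q = 0.686) and Mkl1 23.8 against 19.1 FPKM (q = 0.0936), while Mkl2 rose from 8.00 to 12.8 FPKM (q = 0.000185) as listed in the authors' deposited table. Rhob, a small GTPase, rose from 31.8 to 126 FPKM (q = 0.000185) by the authors' deposited table. Rock2, a kinase that raises myosin activity, fell from 93.6 to 43.2 FPKM (q = 0.000185) per the authors' deposited table. Further falls were those of Diaph3, a formin that builds filaments (18.8 to 10.5 FPKM, q = 0.000185), and Scai, a repressor of MRTF (7.63 to 3.59 FPKM, q = 0.00661) as listed in the authors' deposited table.

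Genes that bind monomers or turn filaments over included 6 called lower and 1 higher of 15 tested by the authors' deposited table, and the median log2 ratio was -0.13, which upper quartile rescaling would turn above 0. Among all tested rows with a mean of at least 50 FPKM, 40.0% were called lower and 19.2% higher. The 4 with the largest change all fell: the profilins Pfn1 (1084 to 679 FPKM, q = 0.000185) and Pfn2 (71.9 to 52.8 FPKM, q = 0.000355) and the thymosins Tmsb4x (1393 to 980 FPKM) and Tmsb10 (227 to 130 FPKM, both q = 0.000185) per the authors' deposited table. Profilins and thymosins are known to hold actin monomers. The Arp2/3 complex, which starts branched filaments, and its activators were mixed, with 4 higher and 5 lower of 13 and a median of 0.06. Wasf2, an activator of that complex, rose from 20.6 to 40.0 FPKM (q = 0.000185) and its subunit Arpc1b fell from 76.0 to 51.5 FPKM (q = 0.0138) as listed in the authors' deposited table. Wasl, another activator, rose from 62.5 to 84.7 FPKM (q = 0.000185) and Arpc5l, another subunit, fell from 75.7 to 56.6 FPKM (q = 0.000676) by the authors' deposited table.

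Of 9 tested genes of the myosin motor and its regulators, 1 was called higher and 4 lower by the authors' deposited table, and the median log2 ratio was -0.46. Cald1, caldesmon, which restrains myosin on the filament, fell from 197 to 90.1 FPKM (q = 0.000185) per the authors' deposited table. Mylk, the kinase of the regulatory light chain, fell from 8.58 to 5.59 FPKM and Ppp1r12a, the targeting subunit of its phosphatase, rose from 17.5 to 26.7 FPKM (both q = 0.000185) as listed in the authors' deposited table. Ppp1r14b, an inhibitor of that phosphatase, fell from 79.8 to 55.4 FPKM (q = 0.000185) per the authors' deposited table. Smtn, smoothelin, an actin-binding protein named for smooth muscle and listed among its markers, fell from 112 to 19.8 FPKM (q = 0.000185) by the authors' deposited table.

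Crosslinkers and adhesion-linked SRF targets split. Of 16 tested, 8 were called lower and 3 higher per the authors' deposited table, and the median log2 ratio was -0.45, or -0.29 with a pseudocount of 1. The list holds genes above and below a mean of 50 FPKM, and 40.0% of all tested rows at or above it were called lower. Fermt2, kindlin-2, fell from 35.7 to 18.8 FPKM and Flnc, a filamin, from 11.7 to 6.41 FPKM (both q = 0.000185) as listed in the authors' deposited table. Vcl, vinculin, which ties filaments to adhesions, rose from 62.8 to 131 FPKM and Csrp1, a LIM protein of the filament, from 73.4 to 152 FPKM (both q = 0.000185) by the authors' deposited table. The promoter window of Vcl holds an exact CArG box. Exact boxes also stand in the windows of Srf (82 and 62 bases before the start site) and Actc1 (47 bases before it). Csrp1 and Egr1 were looked up too, and no match within 1 mismatch was listed for either. Whether a window existed for these genes is not recorded. Only a few genes outside the 10 were looked up in this way. Immediate early SRF targets are reached through another class of cofactor, and the list of such genes had 5 lower and 2 higher of 10. Dusp6 fell from 68.7 to 9.41 FPKM, Egr1 from 74.4 to 13.3 FPKM and Ier2 from 31.3 to 16.0 FPKM (all q = 0.000185) per the authors' deposited table. Nr4a1, a nuclear receptor in that list, rose from 5.43 to 8.71 FPKM (q = 0.000185) by the authors' deposited table. The list was drawn up by name, and whether each of its genes, Dusp6 among them, answers to SRF was not tested.

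**Figure D5:**
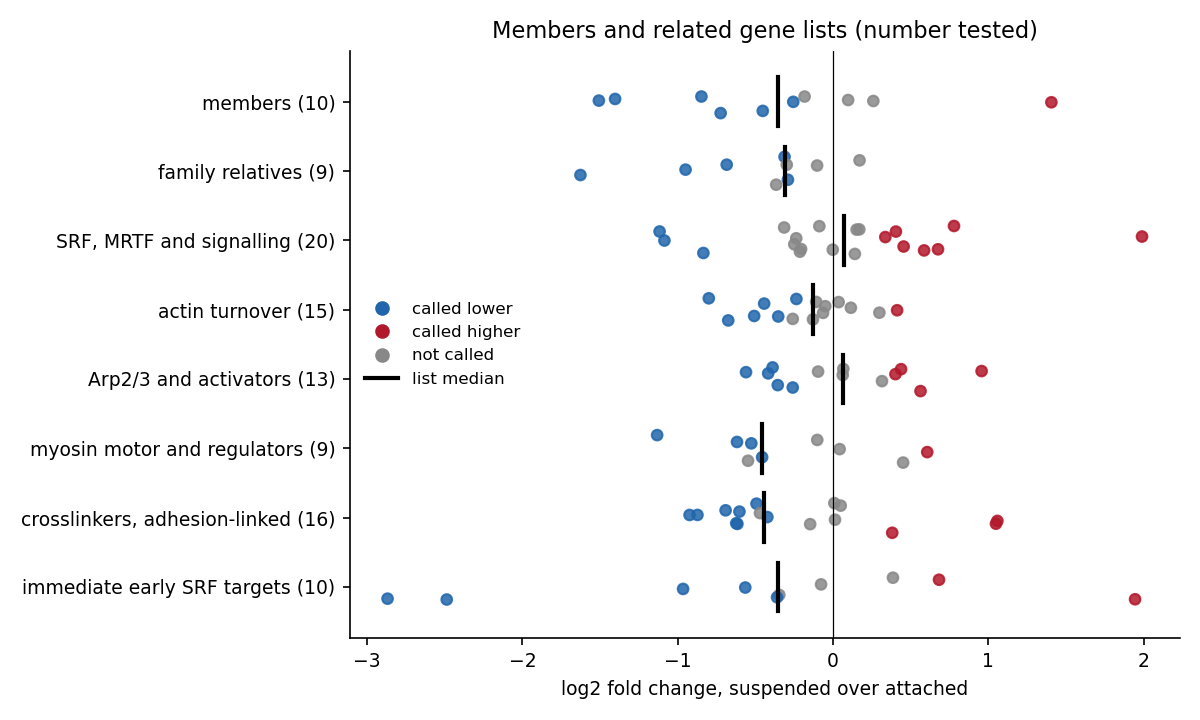
Each point is a tested gene, placed by the log2 ratio of suspended to attached FPKM from the authors' deposited table; colour gives the call and black bars mark list medians; the vertical scatter within a list carries no value. The 10 members have a median of -0.35 and lie between -1.51 (Fhl2) and 1.41 (Myl9), and the list of SRF, MRTF and signalling genes is centred near 0, at 0.07.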

How the data were processed

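Messenger RNA of 3 attached and 3 suspended libraries was sequenced on an Illumina HiSeq 2000, per the labels' protocols. TopHat, Bowtie, Cufflinks 1.0.3 and Cuffdiff with the build mm10 are the tools and build listed in the submitters' processing notes. Neither their parameters nor the annotation or strand mode is recorded there. The authors deposited 1 FPKM per gene and condition, a log2 fold change, a test score, a p-value and a q-value, per the file headers. The last letter of each condition's name in the table, A or S, was taken to mean attached or suspended. Calls are the authors' q below 0.05, and no new test was run. Row starts were raised by 1, since they were 1 below those of GENCODE M21 (GRCm38) for 9 of the 10 genes. The 10 genes and the lists were chosen with earlier results of these data known. From each further list up to 4 called genes with the largest change were named, among those of at least 5 FPKM in the higher condition, with Srf, Mkl1, Mkl2 and the actins (1 gene that the rule names is not reported here); others named (Cnn1, Fhl1, Tpm2, Myl12a, Myl12b, Myl6, Bcl2l11, Bmf, Csf1r, Cd14, Itgam, Pdgfra, Synpo2, Pcsk7, Col3a1, Lum, Emcn and the pseudogenes) were chosen after their values were seen. Older symbols were matched through RefSeq synonyms. Promoters came from RefSeq, and transcript windows were matched exactly on both strands. Calculations were tested on simulated data. The simulated p came from the same normal formula that the implied SE inverts. It therefore checks the code and not whether that formula holds for the deposited p. The software was SciPy 1.17.1, matplotlib 3.10.9, pandas 2.3.3, NumPy 2.4.6 and Python 3.11.15.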

Additional observations from a re-analysis of the deposited data

How the results depend on the processing

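Alternatives covered low-value filters, the q threshold, a 2-fold minimum, pseudocounts, rescaling, the adjustment and the CArG rule. No test could be repeated, so the deposited q, and with it the side of the threshold, was fixed under rescaling, pseudocounts and low-value filters, and these alternatives say nothing about the stability of a call. Upper quartile rescaling turned Actg1, which was not called, from -0.18 to 0.0098 on the log2 scale, and it is the 1 gene of the 10 whose direction did not hold. With a 2-fold minimum the calls of Actb (-0.85), Tpm1 (-0.45), Tpm4 (-0.26) and Cnn2 (-0.72) ended by construction, which left 2 lower calls. In the 7 related lists that minimum left 6 lower and 4 higher calls among 92 tested genes, beside 7.12% and 12.4% of all tested rows. At q below 0.01 the call of Tpm4 (-0.26) ended. A filter of at least 5 FPKM removed Acta2, Tagln and Myl9, so the count of higher calls was 0 by construction, Myl9 having been the 1 such call. The implied SE from the score, the longer window and the background of abundant rows were chosen after seeing the data. No paired analysis was possible because the table holds 1 pooled value per condition, and leaving out a replicate, another test and normalization by TMM or size factors were not run for the same reason.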
